A study of Homo sapiens with 15 samples.

Results

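Immortalized human astrocytes that had received doxycycline for 7 days were compared with the same line after 3 days of the drug, gene by gene. The comparison used the 4 day 7 libraries (numbered 17 to 20) and the 4 day 3 libraries (9 to 12) that the titles mark as b2, 8 of the 15 samples of the series. The line is of fetal origin, was immortalized with SV40, and was grown in a medium with serum and EGF at 10 ng/ml. In all 8 samples a mutant IDH1, named in the design text as IDH1-R132H, was induced with doxycycline at 1 µg/ml, while the genotype label of every sample of the series, untreated ones included, reads WT IDH1. Levels in 3 untreated b2 libraries of the same table are given beside the results as a description. The labels name no day for those untreated cells and no sample that received doxycycline without the transgene. Length of induction, time in culture and length of exposure to the drug therefore cannot be told apart. Whether libraries came from separate cultures is not stated, so p-values measure only the spread between these samples, which may be technical.

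IDH1 makes 2-oxoglutarate from isocitrate in the cytosol, and the mutant enzyme turns 2-oxoglutarate into 2-hydroxyglutarate. This metabolite competes with 2-oxoglutarate at a family of oxygenases that includes histone demethylases, TET enzymes, collagen prolyl hydroxylases and the prolyl hydroxylases that mark hypoxia-inducible factors for destruction. Astrocytes are glial cells that support neurons, and when activated they secrete cytokines, chemokines, complement proteins and extracellular matrix.

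Expression was measured by bulk MARS-seq, which tags the 3′ end of each RNA molecule with a unique molecular identifier (UMI), so that molecules rather than reads are counted. The day 7 libraries held 2892448 to 4656705 UMIs and the day 3 libraries 1816599 to 2725520, so each day 7 library was deeper than each day 3 library. Of 12575 genes listed, 10586 had enough counts to be tested, and the log2 CPM of libraries of 1 group correlated with r between 0.976 and 0.989 across genes. The spread between paired libraries, as chi-square per degree of freedom against counting noise, was 4.365 to 5.545 for pairs with day 7 library 17. For the other pairs it was 1.931 to 2.717. Levels below are CPM, UMI counts scaled to a common library total, values of 4 libraries are listed in the order of their numbers, and means carry the SD with n = 4. A gene is said to have risen or fallen where its adjusted p in edgeR's quasi-likelihood test was under 0.05.

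IDH1 (chromosome 2, 208236227 to 208266074, GRCh38) was counted at 42.2, 35.1, 44.6 and 35.5 CPM on day 3 and at 30.2, 41.7, 42.0 and 43.2 CPM on day 7. The groups overlapped, and the log2 change of 0.02 ± 0.13 (SE) did not pass the test (adjusted p = 0.966, 95% interval -0.25 to 0.28). Its sign turned when day 3 library 10 or 12 or day 7 library 18, 19 or 20 was left out, with values down to -0.04. A 3′ tag does not separate the native from the mutant transcript, and a transgene with another 3′ end would not be counted under this symbol. The value therefore checks neither the labels nor the induction.

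From day 3 to day 7, 537 genes changed (5.07% of those tested), of which 292 rose (2.76%) and 245 fell (2.31%). The count of genes that rose was 191 without day 3 library 10. Rises made up 54.38% of the changed genes, but 49.35% without day 3 library 10 and 47.29% without day 7 library 17. Most changes were small: 30 genes rose and 24 fell by at least 2-fold, together 0.51% of genes tested. These counts were 19 rises after thinning to equal depth and 11 falls with a stricter filter on low counts, and the median log2 change of all tested genes was 0.007. For 11.6% of genes the day 3 and day 7 ranges did not overlap, 6.17% with day 7 above day 3 and 5.47% with day 7 below. Among genes that changed, averaged at least 20 CPM and had ranges apart, the largest rises were in secreted inflammatory proteins and the largest fall was in the carbonic anhydrase CA9, followed by TNFAIP2, which is on the same NF-kB and inflammatory list as several of the rises, and by the matrix genes MFAP4 and COL1A2. Counts thinned to the smallest library's total, which removes the difference in depth, gave 404 changed genes, 351 of them among the 537. The authors' deposited table of the same contrast has 366 genes with an adjusted p under 0.05, and 359 of these are among the 537.

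**Figure D1:**
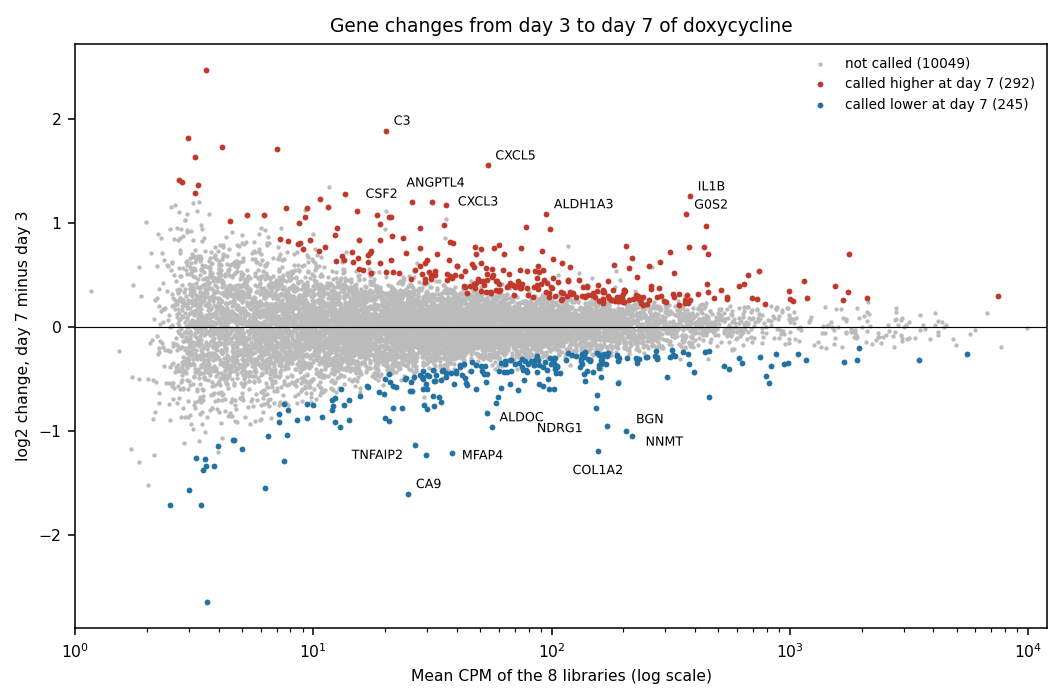
Each point is 1 of the 10586 tested genes, with its mean CPM over the 8 libraries on a log axis and its log2 change from day 3 to day 7; red points rose, blue points fell and grey points did not pass the test. Of the largest rises and falls, 8 each among genes of at least 20 CPM with ranges apart are labelled, from C3 at 1.89 to CA9 at -1.61.

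Among lists with at least 5 tested members, NF-kB and inflammatory genes had the largest share of genes that passed the test. At an unadjusted p under 0.05 in the same edgeR test the order differed. The share was then 62.5% for this list, 76.0% for hypoxia targets and 73.3% for heat shock genes, against 18.4% of all tested genes. The lists were chosen with earlier results of these data known, so their order is a description only. NF-kB is a transcription factor released by cytokine and stress signals, and its targets include the CXCL chemokines that draw neutrophils. Of 24 tested genes of the NF-kB and inflammatory list 11 rose and 1 fell, and the median log2 change was 0.32 against 0.007 for all tested genes. CXCL5 lies with CXCL1, CXCL2, CXCL3, CXCL6 and CXCL8 on chromosome 4, and all 6 rose. The promoters of the 3 that rank among the largest rises are shown because a shared NF-kB motif of 10 bases, in capitals, lies upstream of each start. Each sequence runs from 250 bases before to 50 bases after the RefSeq start on GRCh38.p14, 5′ to 3′ on the gene's strand.
CXCL5, chr4:73998628-73998927, minus strand: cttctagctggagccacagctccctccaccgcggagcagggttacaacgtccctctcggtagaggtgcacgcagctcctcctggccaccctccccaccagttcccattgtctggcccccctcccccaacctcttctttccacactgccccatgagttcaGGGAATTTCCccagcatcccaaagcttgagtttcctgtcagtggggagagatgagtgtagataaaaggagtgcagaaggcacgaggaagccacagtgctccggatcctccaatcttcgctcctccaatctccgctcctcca
CXCL3, chr4:74038640-74038939, minus strand: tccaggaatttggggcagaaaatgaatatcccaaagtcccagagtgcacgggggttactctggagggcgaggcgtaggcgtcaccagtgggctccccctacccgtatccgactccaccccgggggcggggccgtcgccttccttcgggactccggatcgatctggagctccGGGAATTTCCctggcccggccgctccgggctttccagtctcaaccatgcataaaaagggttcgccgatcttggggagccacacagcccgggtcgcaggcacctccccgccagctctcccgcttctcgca
CXCL1, chr4:73869143-73869442, plus strand: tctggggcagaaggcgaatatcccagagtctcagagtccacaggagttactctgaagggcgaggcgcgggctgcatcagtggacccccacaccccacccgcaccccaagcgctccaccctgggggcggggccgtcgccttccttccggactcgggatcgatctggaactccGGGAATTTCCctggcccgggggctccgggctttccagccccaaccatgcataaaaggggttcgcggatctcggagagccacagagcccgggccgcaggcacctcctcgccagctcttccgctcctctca
This motif, with any base allowed at the 2 positions between the G run and the T run and searched on both strands, was found in 10 of the 20 list members with a promoter, in 2.19% of 8135 tested genes with one and in 1.92% of all 27305 promoters. The 10 were CXCL1, CXCL2, CXCL3, CXCL5, CXCL6, IL6, NFKBIA, NFKBIZ, NFKB1 and TNFAIP3, so the motif was also present in 4 members that did not pass the test. This form was added after the values were seen. The stricter consensus, with AC at those positions, was found in TNFAIP3 alone, 5% of the 20, against 0.16% of tested genes. A match describes letters in this window and nothing about binding.

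CXCL5 stood at 32.1, 28.5, 24.8 and 24.9 CPM on day 3 and at 81.8, 71.5, 87.2 and 79.5 CPM on day 7. All day 7 values lay above all day 3 values, a log2 change of 1.55 ± 0.11 (SE), or 2.93-fold (adjusted p = 6.15e-11). The untreated libraries held 23.9 to 30.6 CPM, a range that overlapped day 3 and not day 7. CXCL3 went from 15.8, 22.7, 25.2 and 24.9 CPM to 42.5, 46.9, 58.1 and 52.4 CPM (log2 1.17 ± 0.15, adjusted p = 4.9e-06). CXCL1 went from 281, 283, 289 and 347 CPM to 648, 508, 595 and 593 CPM (log2 0.97 ± 0.08, adjusted p = 4.19e-10). Neither pair of ranges overlapped, although day 3 library 12 was well above the other 3 for CXCL1. The other 3 chemokines were CXCL6 (log2 0.65 ± 0.10), CXCL2 (0.55 ± 0.11) and CXCL8, or interleukin 8 (1.14 ± 0.32, adjusted p = 0.0423), named after their values were seen. CXCL8 was low, and its day 7 values of 17.5, 9.03, 5.52 and 10.4 CPM overlapped the day 3 range of 3.29 to 6.31 CPM. The sequences of CXCL1, CXCL2 and CXCL3 are close relatives, so reads could be split among them.

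Among the cytokines, IL1B (chromosome 2, 112829751 to 112836903, minus strand) encodes interleukin 1 beta, an activator of NF-kB. Its day 3 libraries held 223, 232, 222 and 221 CPM and its day 7 libraries 600.4, 485, 530.0 and 528 CPM. The lowest day 7 library was more than 2-fold above the highest day 3 library, and the log2 change was 1.25 ± 0.07 (SE), 2.39-fold (adjusted p = 1.83e-13). Untreated libraries stood at 172 to 175 CPM. CSF2, which encodes the growth factor GM-CSF, moved from 16.3, 14.3, 16.7 and 15.8 CPM to 40.2, 35.1, 36.1 and 33.3 CPM (log2 1.20 ± 0.13, adjusted p = 4.53e-07). Day 3 CSF2 values were below the untreated range of 18.4 to 23.9 CPM and day 7 values above it. LIF, IL6 and IL11, cytokines that signal through gp130, rose less, by 0.57 ± 0.07, 0.33 ± 0.07 and 0.31 ± 0.09 on the log2 scale. IL11 overlapped between the days.

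Other parts of the NF-kB list did not pass the test. The inhibitor NFKBIA, which NF-kB itself induces, was at 252 ± 19.9 CPM on day 3 and 289 ± 33.9 CPM on day 7 (adjusted p = 0.128). The antioxidant enzyme SOD2 was at 292 ± 39.8 and 303 ± 23.3 CPM, and the adhesion receptor ICAM1 at 75.2 ± 7.50 and 78.0 ± 10.4 CPM. Their 95% intervals on the log2 scale were 0.05 to 0.36 for NFKBIA, -0.11 to 0.22 for SOD2 and -0.15 to 0.26 for ICAM1, and these 3 were named after their values were seen. A single member fell (2 without day 7 library 17): TNFAIP2, a gene first found as a target of tumor necrosis factor, went from 38.3, 39.1, 47.7 and 41.5 CPM to 16.9, 14.9, 20.8 and 17.2 CPM (log2 -1.23 ± 0.13, adjusted p = 1.09e-07). Its day 7 level was also under the untreated range of 33.2 to 37.2 CPM.

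**Figure D2:**
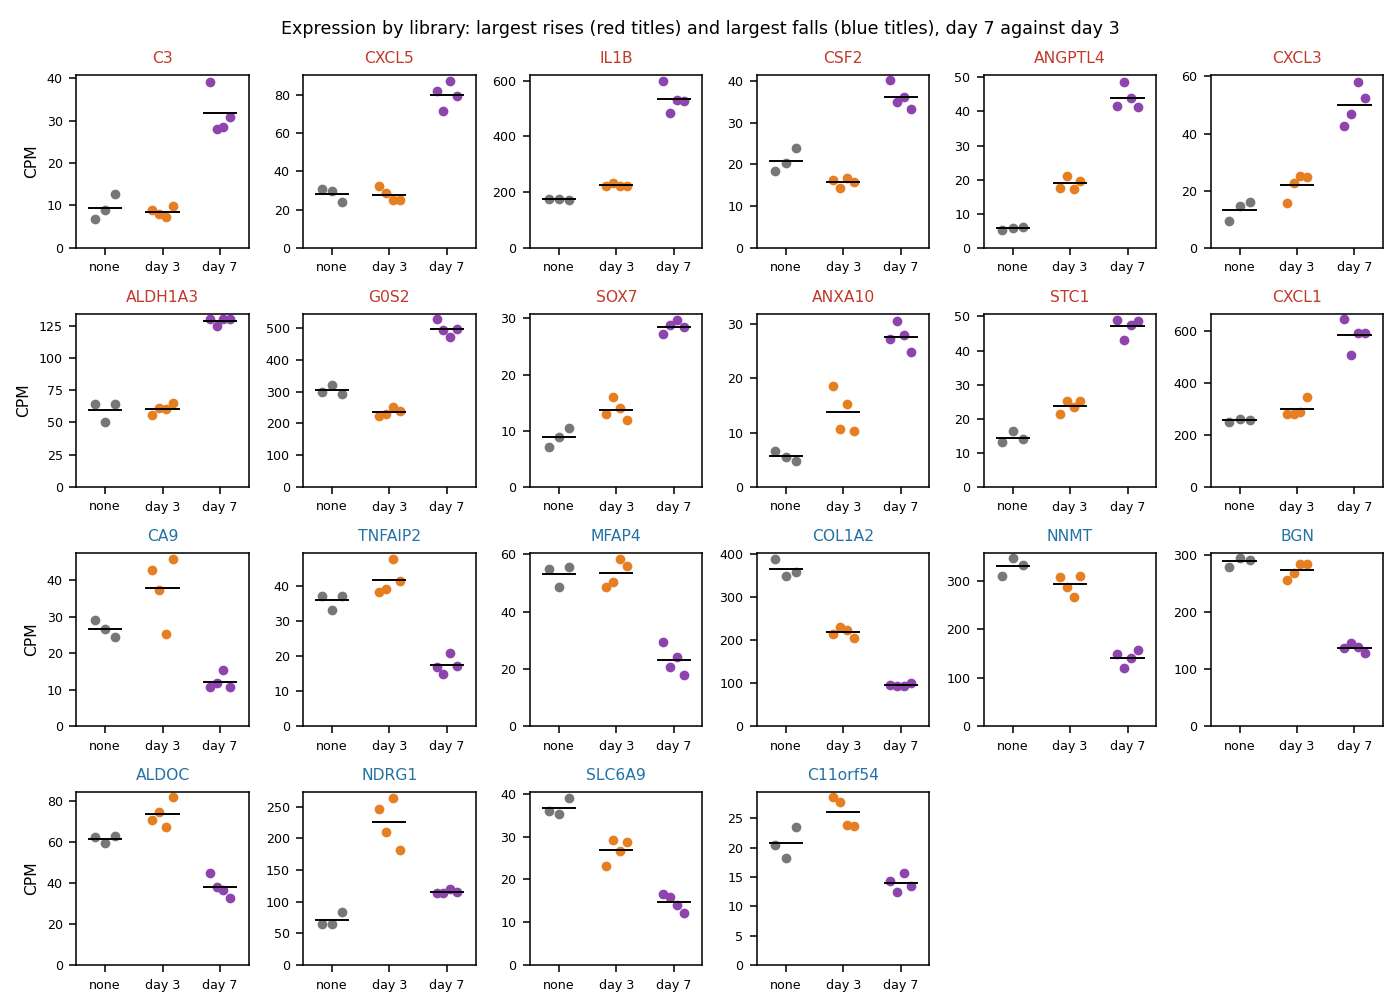
CPM in each library (points, with a line at the mean) for the 12 largest rises (red titles) and 10 of the 12 largest falls (blue titles), in 3 untreated, 4 day 3 and 4 day 7 libraries, each panel on its own linear axis from 0. For all the genes shown the day 3 and day 7 points do not overlap, as the choice of the genes requires; in CXCL5 and C3 the day 3 points overlap the untreated ones, while COL1A2 steps down through both days.

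Among the 12 largest rises, 7 genes lie outside that list. C3, the central complement protein (chromosome 19, 6677704 to 6730562, minus strand), had the largest of these, from 9.01, 8.04, 7.21 and 9.87 CPM to 39.3, 28.1, 28.6 and 31.0 CPM. That is a log2 change of 1.89 ± 0.18 (SE), or 3.69-fold (adjusted p = 3.4e-08), from 16 to 25 UMIs in each day 3 library to 81 to 135 in each day 7 library. The untreated range was 6.84 to 12.6 CPM, around the day 3 level. ALDH1A3, which makes retinoic acid from retinaldehyde, went from 55.8, 61.0, 60.4 and 65.2 CPM to 129.8, 125, 130.3 and 130.0 CPM (log2 1.08 ± 0.09, adjusted p = 7.65e-10), with untreated libraries at 50.3 to 64.2 CPM. G0S2, an inhibitor of the lipase that breaks down stored triglyceride, went from 225, 229, 250.4 and 239.7 CPM to 530.3, 494, 473 and 498 CPM (log2 1.08 ± 0.06, adjusted p = 1.07e-12). For G0S2 day 3 was below the untreated range of 292 to 321 CPM and day 7 above it. SOX7, a transcription factor of the SOX family, rose from 13.7 ± 1.80 to 28.5 ± 1.02 CPM, and ANXA10, a calcium-binding annexin, from 13.7 ± 4.00 to 27.6 ± 2.39 CPM. Both were lower still in untreated libraries, at 8.83 ± 1.65 and 5.63 ± 0.882 CPM (n = 3), so their levels were ordered untreated, day 3, day 7. The 2 others, ANGPTL4 and STC1, are on the hypoxia list.

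Hypoxia targets split. The hypoxia-inducible factors switch on genes for glucose uptake, glycolysis, pH control and blood vessel growth when oxygen is low, through a short DNA core. Of 25 tested targets 3 rose and 6 fell (36.0%, against 5.07% of all tested genes), and the list's median log2 change was -0.21. CA9, a carbonic anhydrase of the cell surface (chromosome 9, 35673856 to 35681159, plus strand), went from 42.8, 37.3, 25.2 and 45.8 CPM to 10.7, 11.8, 15.5 and 10.7 CPM. This was the largest fall among the genes named by size, at log2 -1.61 ± 0.17 (SE), or 3.04-fold (adjusted p = 2.23e-07), and day 7 lay below the untreated range of 24.4 to 29.1 CPM as well. ANGPTL4, a secreted inhibitor of lipoprotein lipase, moved the other way, from 17.5, 21.2, 17.1 and 19.7 CPM to 41.5, 48.6, 43.9 and 41.2 CPM (log2 1.20 ± 0.13, adjusted p = 1.24e-07). Untreated libraries held 5.35 to 6.09 CPM of ANGPTL4, so both days lay above them. The promoters of these 2 genes, which moved in opposite directions, are printed in the same window as above with the core in capitals; in both it lies on the opposite strand, where CACGT reads ACGTG.
CA9, chr9:35673678-35673977, plus strand: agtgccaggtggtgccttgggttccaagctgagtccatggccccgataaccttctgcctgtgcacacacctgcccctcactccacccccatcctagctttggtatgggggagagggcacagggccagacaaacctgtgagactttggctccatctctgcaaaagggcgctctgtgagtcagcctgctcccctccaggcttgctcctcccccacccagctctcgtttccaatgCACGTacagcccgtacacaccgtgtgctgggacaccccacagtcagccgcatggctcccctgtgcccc
ANGPTL4, chr19:8363905-8364204, plus strand: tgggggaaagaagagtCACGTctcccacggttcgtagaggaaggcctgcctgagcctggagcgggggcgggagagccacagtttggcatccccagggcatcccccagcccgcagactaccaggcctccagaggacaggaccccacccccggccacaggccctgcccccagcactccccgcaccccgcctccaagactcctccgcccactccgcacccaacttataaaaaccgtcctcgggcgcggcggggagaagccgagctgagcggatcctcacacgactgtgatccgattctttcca
ACGTG or GCGTG on either strand was found in 17 of 20 list members with a promoter, in 64.7% of tested genes and in 48.4% of all promoters. In CA9 the core lies near the start and in ANGPTL4 near the upstream end of the window.

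NDRG1, a stress-induced gene on chromosome 8, lay on day 7 between its day 3 and untreated levels. It stood at 246, 209.8, 263 and 182 CPM on day 3 and at 114, 113, 119 and 116 CPM on day 7, with untreated libraries at 64.8 to 83.1 CPM (log2 -0.96 ± 0.10, adjusted p = 5.19e-07). The 4 day 7 libraries were close together while day 3 was spread, and day 7 was still above the untreated range. The other falls were the neuronal-type glucose transporter SLC2A3 (-0.79 ± 0.13), the MYC antagonist MXI1 (-0.72 ± 0.11), the prolyl hydroxylase P4HA1 (-0.52 ± 0.12) and the mitophagy receptor BNIP3 (-0.41 ± 0.06). P4HA1 did not pass after thinning to equal depth. BNIP3 stood at 631 ± 16.6 CPM on day 3, 476 ± 17.9 CPM on day 7 and 442 ± 28.4 CPM in untreated cells. STC1, a secreted glycoprotein, rose from 21.4, 25.2, 23.4 and 25.3 CPM to 49.0, 43.1, 47.5 and 48.7 CPM (log2 0.97 ± 0.12, adjusted p = 1.13e-06). The vasodilator peptide gene ADM rose by 0.30 ± 0.09. VEGFA, the vessel growth factor, went from 139 ± 10.2 to 165 ± 15.6 CPM and did not pass (adjusted p = 0.0656). SLC2A3, MXI1, BNIP3, ADM and VEGFA were named after their values were seen.

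The glycolysis list holds the monocarboxylate transporters SLC16A1 and SLC16A3 besides enzymes. Of its 19 tested genes 6 fell (31.6%, against 2.31% of all tested genes), with a median log2 change of -0.11 for the list. ALDOC, the brain isoform of aldolase, went from 71.0, 74.6, 67.6 and 82.1 CPM to 45.1, 38.2, 36.5 and 32.8 CPM (log2 -0.96 ± 0.10 (SE), adjusted p = 1.59e-07), below the untreated range of 59.5 to 63.1 CPM. The other 5 falls were smaller and nearly equal in size, and included the triose phosphate isomerase TPI1, at 2122 ± 30.3 CPM on day 3 and 1702 ± 156 CPM on day 7 (log2 -0.32 ± 0.06, adjusted p = 0.00225). Phosphoglycerate kinase PGK1 went from 1097 ± 49.5 to 863 ± 85.3 CPM (-0.35 ± 0.07), and ENO2, GPI and PFKL fell by 0.33, 0.30 and 0.33 on the log2 scale. PGK1 and the lysosomal enzyme gene GUSB (-0.35 ± 0.09) are also on the list of commonly used housekeeping genes. On that list 2 of 14 fell (14.3%), and 1 without day 3 library 9 or 11. Of 22 tested genes of the tricarboxylic acid cycle 0 changed by edgeR, 0 by DESeq2 and 0 by limma-voom, where 5.07% of all tested genes changed by edgeR. An unadjusted p under 0.05 was reached by 3 of the 22, or 13.6%, and by 18.4% of all tested genes. The difference between the lists was not tested. The 2 members with the highest mean CPM, MDH1 and SDHB, had 95% intervals of -0.30 to 0.11 and -0.05 to 0.19.

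Matrix genes form the scaffold outside the cell. Of 24 tested collagens and matrix genes 10 fell and 1 rose (45.8%, against 5.07% of all tested genes), with a median log2 change of -0.27. The count of falls was 5 without day 3 library 12 and 6 without day 7 library 18. COL1A2, the alpha 2 chain of collagen I (chromosome 7, 94394561 to 94431232, plus strand), went from 213, 230.3, 222 and 204 CPM to 94.4, 92.7, 93.1 and 100.04 CPM. Untreated libraries held 347 to 387 CPM, so the 3 groups formed 3 separate steps, and the step from day 3 to day 7 was log2 -1.19 ± 0.07 (SE), or 2.28-fold (adjusted p = 1.07e-12). The partner chain COL1A1 did not pass, at 279 ± 10.8 and 228 ± 55.6 CPM (log2 -0.29 ± 0.13, adjusted p = 0.272), with day 7 library 17 at 310.3 CPM and the other 3 at 188 to 214 CPM. BGN, or biglycan, a small proteoglycan that binds collagen (chromosome X), fell from 256, 268, 286 and 286 CPM to 136, 146, 138 and 128 CPM (log2 -1.002 ± 0.07, adjusted p = 1.41e-11). Unlike COL1A2, BGN on day 3 lay close to the untreated range of 279.9 to 296 CPM. MFAP4, a protein of elastic microfibrils that is on none of the lists, fell from 48.4, 50.4, 58.6 and 56.1 CPM to 29.5, 20.5, 24.2 and 18.0 CPM (log2 -1.22 ± 0.13).

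The collagen V chains COL5A1 and COL5A2, which start collagen fibril assembly, fell by 0.51 ± 0.10 and 0.78 ± 0.17 on the log2 scale. The other falls were THBS2, FBLN1, SPARC, COL4A1, FN1 and COL4A2, by 0.24 to 0.42. COL7A1, the anchoring fibril collagen, was the 1 rise, from 61.2 ± 4.73 to 83.2 ± 1.57 CPM (0.44 ± 0.09). Of 20 genes for collagen hydroxylation and crosslinking 3 fell, where 2.31% of all tested genes fell. The 3 were LOXL1 (153, 186, 178 and 168 CPM to 138, 124, 124 and 124 CPM), LOXL3 and P4HA1. Of the same 20 genes 5 fell without day 7 library 17. LOXL3 did not pass without day 3 library 11 or day 7 library 20, and P4HA1 did not pass after thinning to equal depth. Several of the matrix genes also mark fibroblasts and pericytes. Of 13 such markers 9 were listed, DCN, LUM, COL3A1 and RGS5 were not, and the listed 9 summed to 1339 to 1405 CPM in untreated, 1148 to 1193 CPM in day 3 and 879.3 to 1108 CPM in day 7 libraries. Without the 2 collagen I chains the sums were 668.6 to 688.7 CPM on day 3 and 590.8 to 703.6 CPM on day 7, and THY1, a marker outside the collagens, was at 534 ± 6.39 and 519 ± 50.6 CPM. Of the 7 tested, COL1A2 and CSPG4 fell (28.6%, against 2.31% of all tested genes), and 4 fell without day 7 library 17. The part of these cells in the matrix result was not tested. In bulk RNA fewer cells of a type and less RNA per cell cannot be told apart.

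**Figure D3:**
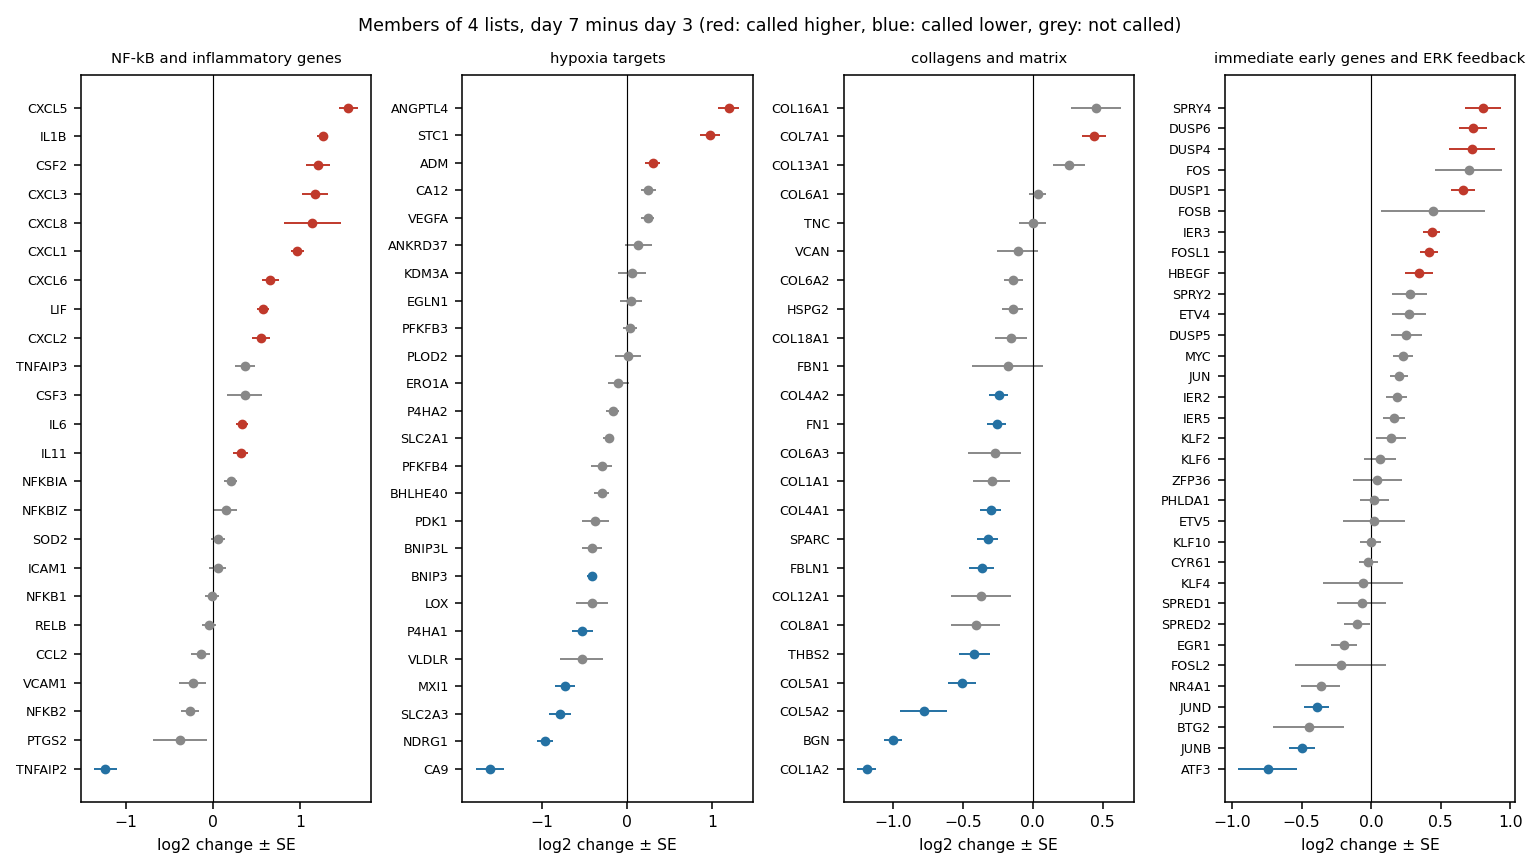
Log2 change from day 3 to day 7 with its SE for the tested members of 4 lists, sorted within each (red rose, blue fell, grey did not pass the test). The NF-kB list runs from CXCL5 at 1.55 to TNFAIP2 at -1.23, hypoxia targets spread to both sides, and matrix genes lie mostly left of 0.

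Targets of TGF-beta and YAP, regulators of contractile and matrix programs, went both ways. Of 23 tested genes 5 rose and 5 fell (43.5%, against 5.07% of all tested genes), with a median of -0.02. INHBA, the activin A subunit, went from 270.4, 284, 297 and 265 CPM to 481, 498, 479.8 and 436 CPM (log2 0.76 ± 0.06 (SE), adjusted p = 1.62e-09). Every day 7 library was above every day 3 and untreated library. The contractile gene TAGLN fell, from 555, 539.5, 533 and 621 CPM to 366, 365, 312 and 366 CPM (-0.68 ± 0.07, adjusted p = 2.93e-07). TPM1, another actin-binding gene, rose by 0.39 ± 0.06, as did the BMP targets ID3 (0.39 ± 0.06) and ID1 (0.35 ± 0.07). CNN1, TGFBI, CTGF and AXL made up the rest of the falls, at 0.25 to 0.35 on the log2 scale. The count of falls was 3 without day 3 library 9, 2 without day 3 library 11 and 2 without day 7 library 20, and CTGF and AXL overlapped between the days.

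The plasminogen system turns plasminogen into the protease plasmin outside the cell. Of 20 tested matrix proteases and inhibitors 6 rose and 3 fell (45.0%, against 5.07% of all tested genes), with a median of 0.09. The activator PLAU, or urokinase, went from 291, 254, 247 and 284 CPM to 403, 341, 391 and 400.2 CPM (log2 0.51 ± 0.07 (SE), adjusted p = 1.17e-05). Its receptor PLAUR rose by 0.48 ± 0.07, the activator PLAT by 0.41 ± 0.06, and the inhibitor SERPINB2 rose too. The activators and this inhibitor thus moved in the same direction. SERPINB2 had the largest change of any list member, 2.46 ± 0.41, but at low counts: 0.563, 1.46, 0.450 and 1.58 CPM became 3.89, 7.99, 6.79 and 5.73 CPM. ADAMTS1, a protease that cleaves proteoglycans, rose from 12.0 ± 2.39 to 24.9 ± 4.59 CPM. SERPING1, the inhibitor of complement C1, fell from 35.5, 38.4, 37.8 and 34.8 CPM to 21.1, 21.5, 21.9 and 22.1 CPM (-0.76 ± 0.11, adjusted p = 2.98e-05), a further step below the untreated 61.6 to 63.9 CPM. The gelatinase MMP2 and the lysosomal protease CTSD fell by 0.33 ± 0.09 and 0.36 ± 0.08. PLAUR, PLAT, SERPINB2, ADAMTS1 and MMP2 were named after their values were seen.

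Of 19 tested integrins and laminins 3 rose and 1 fell (21.05%, against 5.07% of all tested genes). LAMB3, a laminin chain of epithelial basement membranes, rose from 27.3 ± 2.68 to 47.8 ± 1.91 CPM (log2 0.81 ± 0.11 (SE), adjusted p = 9.94e-06). ITGA2, the alpha chain of a collagen receptor, went from 14.1, 17.9, 14.4 and 14.2 CPM to 26.9, 23.3, 30.6 and 30.2 CPM (0.87 ± 0.15, adjusted p = 0.000267). ITGA7 fell by 0.34 ± 0.09, and did not pass without day 3 library 12, while 2 genes of the list fell without day 7 library 17.

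ERK signalling induces its own brakes, the DUSP phosphatases and Sprouty proteins, along with immediate early transcription factors. Of 33 tested genes of this kind 7 rose and 3 fell (30.3%, against 5.07% of all tested genes), with a median of 0.14. DUSP6, which removes phosphate from ERK, went from 72.1, 80.1, 68.9 and 53.3 CPM to 119, 113, 109.7 and 114 CPM (log2 0.73 ± 0.10 (SE), adjusted p = 1.27e-05). DUSP1 went from 171, 162, 173 and 167 CPM to 330.1, 245, 254 and 235 CPM (0.66 ± 0.09, adjusted p = 1.06e-05), with day 7 library 17 highest. DUSP4, SPRY4 and the EGF receptor ligand HBEGF rose by 0.73 ± 0.17, 0.80 ± 0.13 and 0.35 ± 0.10. FOSL1, an AP-1 subunit, rose from 383 ± 24.9 to 511 ± 27.5 CPM, and the early response gene IER3 from 972 ± 52.9 to 1315 ± 74.2 CPM (0.44 ± 0.06, adjusted p = 2.31e-05). Other AP-1 subunits fell: JUNB went from 122, 98.7, 103 and 129.9 CPM to 88.3, 83.7, 74.5 and 75.3 CPM (-0.50 ± 0.09, adjusted p = 0.000945), and JUND fell by 0.39 ± 0.09. AP-1 subunits thus moved in both directions. DUSP4, SPRY4, HBEGF, FOSL1, JUNB and JUND were named after their values were seen.

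Interferon-stimulated genes restrict viruses, and MHC class I molecules present peptides to T cells. Of 16 tested interferon response genes 3 fell (18.75%, against 2.31% of all tested genes), with a median of -0.31. Of 17 class I genes 4 fell (23.5%), with a median of -0.26 and 15 of 17 below 0. IFITM3, a membrane protein that blocks virus entry, went from 175, 179, 191 and 213 CPM to 129, 111, 116 and 125 CPM (log2 -0.66 ± 0.07 (SE), adjusted p = 5.3e-07). Untreated libraries were at 241 to 253 CPM, so levels stepped down through both days. Its neighbour IFITM2 went from 16.9, 17.9, 15.3 and 17.8 CPM to 9.09, 9.72, 7.64 and 8.86 CPM (-0.96 ± 0.17), a count of 28 to 36 UMIs in each day 7 library. LGALS3BP, a secreted binding partner of galectin 3, fell by 0.34 ± 0.08, and did not pass without day 3 library 12. HLA-B went from 917 ± 56.8 to 662 ± 65.3 CPM (-0.47 ± 0.07, adjusted p = 2.78e-05). HLA-C and HLA-E fell by 0.30 ± 0.07 and 0.28 ± 0.06. The class I genes, like IFITM2 and IFITM3, are near-identical copies in part, so reads could be split among them. B2M, the light chain shared by all class I molecules, varied too much to place: 695, 385, 236 and 222 CPM on day 3 and 368, 389, 258 and 219 CPM on day 7 (95% interval -1.38 to 0.76). B2M and HLA-C were named after their values were seen.

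**Figure D4:**
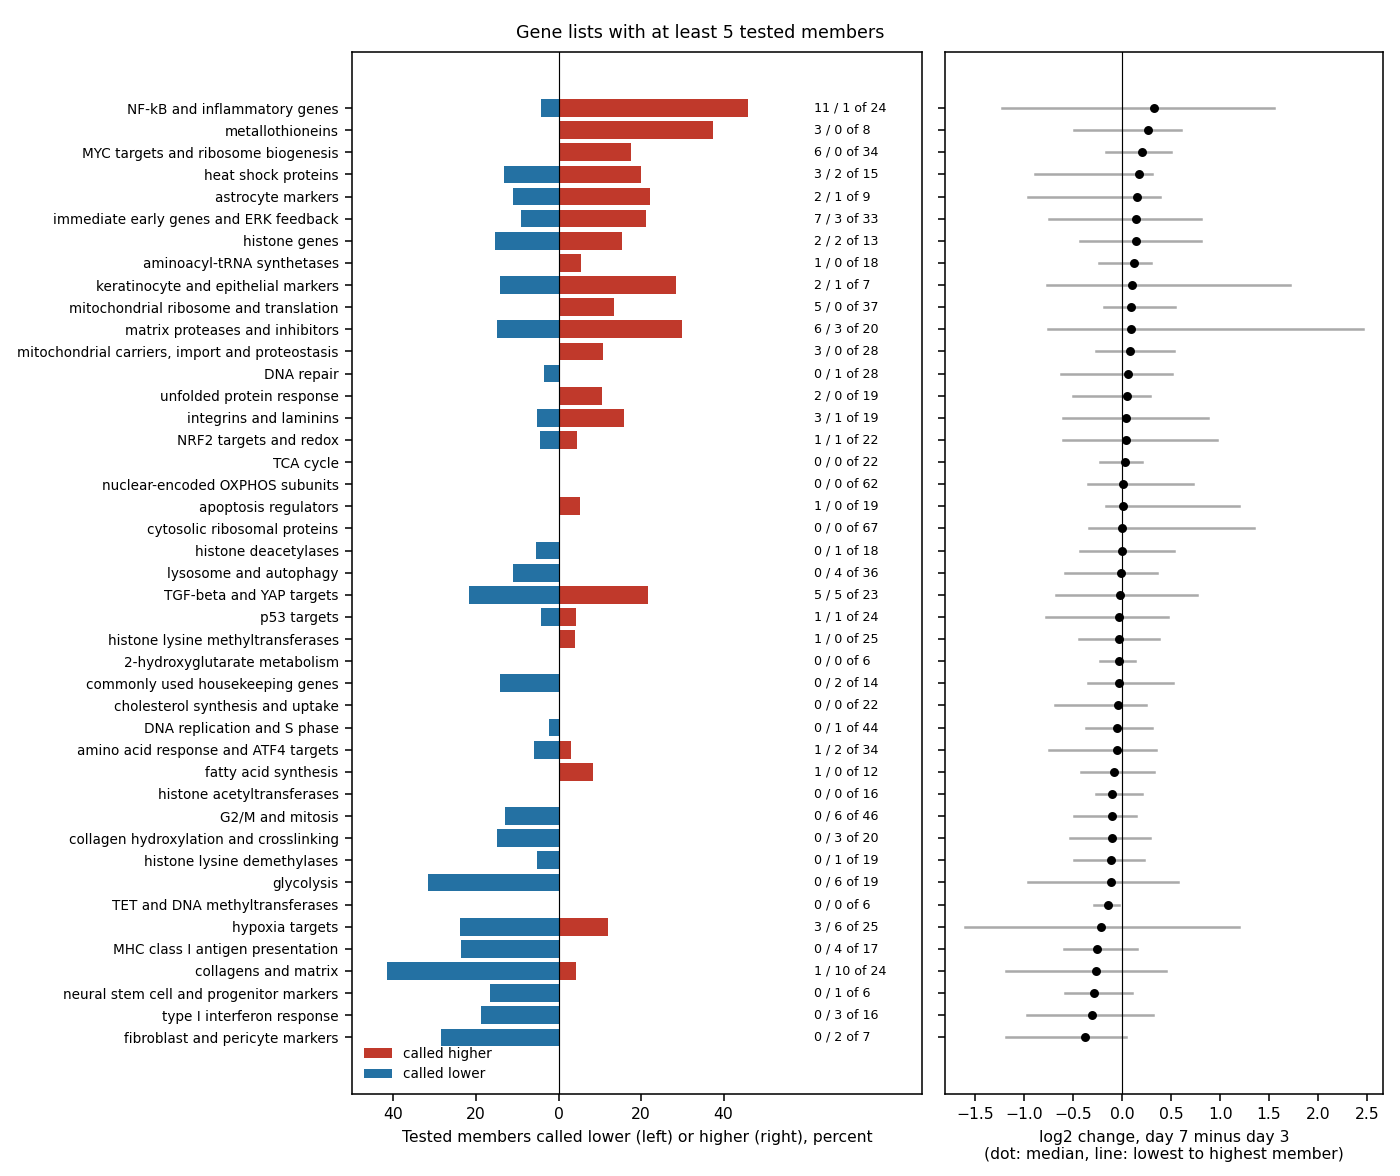
Left, the percent of tested members that rose (red, right) or fell (blue, left) for the lists with at least 5 tested members, with the numbers beside each bar; right, the median log2 change (dot) and the lowest to highest member (line). NF-kB and inflammatory genes top the order at 11 up and 1 down of 24, and collagens and matrix show 1 up and 10 down of 24. Of all tested genes 2.76% rose and 2.31% fell.

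Of 46 tested G2/M genes 6 fell (13.0%), and 39 of the 46 changes were below 0, with a median of -0.10. MYBL2, a transcription factor of cycling cells, went from 164, 200.3, 182 and 205 CPM to 144, 148, 125 and 124 CPM (log2 -0.49 ± 0.08 (SE), adjusted p = 0.000147). The mitotic phosphatase CDC25C fell by 0.49 ± 0.11 and the chromatin protein HMGB2 by 0.35 ± 0.06, from 1064 ± 72.6 to 832 ± 26.9 CPM. The proliferation marker MKI67 went from 137, 119.5, 119 and 101 CPM to 81.5, 85.4, 95.3 and 102 CPM (-0.37 ± 0.09, adjusted p = 0.0135), with ranges that overlapped. Shares for DNA replication and DNA repair were near that of all genes, of which 2.31% fell. Of 44 DNA replication genes 1 fell (2.27%), the thymidine kinase TK1, from 708 ± 58.6 to 555 ± 16.1 CPM (-0.35 ± 0.06, adjusted p = 0.000661), and 2 fell without day 7 library 18. Of 28 DNA repair genes 1 fell (3.57%), FANCD2 of the Fanconi anemia pathway (-0.62 ± 0.17), with ranges that overlapped. FANCD2 did not pass without day 3 library 9 or 10 or day 7 library 20, nor by limma-voom. Among 24 p53 targets 8.33% changed, against 5.07% of all tested genes. The cell cycle inhibitor CDKN1A rose by 0.36 ± 0.07 and the kinase PLK2 fell by 0.46 ± 0.09. With day 7 library 19 left out 2 p53 targets rose, and with day 7 library 17 left out 2 fell. In SV40-immortalized cells the large T antigen binds p53. MKI67 and CDKN1A were named after their values were seen.

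MYC drives nucleolar proteins that process ribosomal RNA, and ODC1, the first enzyme of polyamine synthesis. Of 34 tested MYC targets and ribosome biogenesis genes 6 rose (17.65%, against 2.76% of all tested genes). Of the 34 changes 29 were above 0, with a median of 0.20. ODC1 went from 545, 534, 535 and 593 CPM to 804, 752, 744 and 817 CPM (log2 0.50 ± 0.06 (SE), adjusted p = 2.02e-06). NOP16 rose by 0.44 ± 0.07 and NOP56, a core protein of box C/D particles, from 490.2 ± 19.6 to 599 ± 29.1 CPM (0.29 ± 0.06, adjusted p = 0.00307). BYSL, PNO1 and UTP20 rose by 0.38 to 0.42. Cytosolic ribosomal proteins themselves gave 0 of 67 by edgeR, 0 by DESeq2 and 2 by limma-voom, with 7 (10.4%) at an unadjusted p under 0.05, against 18.4% of all tested genes, and a median of -0.0019. RPS2 and RPLP1, with the highest mean CPM, had 95% intervals of -0.21 to 0.15 and -0.20 to 0.07.

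Mitochondrial genes were taken in 3 lists. PPIF, cyclophilin D of the permeability transition pore (chromosome 10, 79347469 to 79355337, plus strand), went from 586, 615, 591 and 632 CPM to 931, 863, 859 and 858 CPM (log2 0.53 ± 0.06 (SE), adjusted p = 5.53e-07). Untreated libraries held 226 to 255 CPM, so the levels formed 3 separate steps. SLC25A33, a mitochondrial pyrimidine nucleotide carrier, rose by 0.49 ± 0.11 and the import channel subunit TIMM17A by 0.33 ± 0.09. With PPIF, 3 of 28 carriers, import and proteostasis genes rose (10.7%, against 2.76% of all tested genes). TIMM17A did not pass without day 3 library 9, 11 or 12 or day 7 library 17 or 19, and after thinning to equal depth PPIF alone of the 3 passed. Of 37 mitochondrial ribosome and translation genes 34 were above 0 and 5 rose, or 13.5% (MRPL3, MRPL15, MRPL18, MRPS2 and MRPS12, by 0.25 to 0.35). The count of rises was 3 without day 3 library 10 and 2 without day 3 library 12, and 3 after thinning. Of 62 nuclear-encoded subunits of oxidative phosphorylation 0 changed by edgeR, 0 by DESeq2 and 0 by limma-voom. An unadjusted p under 0.05 was reached by 12 of them, or 19.4%, close to the 18.4% of all tested genes.

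The ATF4 pathway answers amino acid shortage and endoplasmic reticulum stress. Of its 34 tested genes 1 rose and 2 fell, 8.82% against 5.07% of all genes, and none of the 3 held in all settings. ATF3 fell from 14.6, 11.3, 12.2 and 9.08 CPM to 7.46, 7.99, 7.00 and 5.47 CPM (log2 -0.75 ± 0.21 (SE), adjusted p = 0.0336), and did not pass without day 3 library 9, 10 or 11 or day 7 library 19 or 20. CHAC1, a glutathione-degrading enzyme, fell by 0.60 ± 0.17 and STC2 rose by 0.35 ± 0.10, and each lost its call without any of several libraries (CHAC1 without day 3 library 9 or 10 or day 7 library 18, 19 or 20; STC2 without day 3 library 9, 10 or 11 or day 7 library 18, 19 or 20). PHGDH, the first enzyme of serine synthesis, stood at 258, 234, 241 and 257 CPM on day 3 and 257, 224, 223 and 226 CPM on day 7, both below the untreated 405 to 421 CPM (95% interval of the change between days -0.22 to 0.04). The element TGATGNAA, through which ATF4 acts, was found in 5 of 27 promoters of this list (ATF3, CHAC1, ASNS, SLC3A2 and SLC7A1), 18.5%, against 1.48% of tested genes and 3.67% of all promoters. TGACGTCA was in 0 of the 27, against 3.52% of tested genes. Of 18 aminoacyl-tRNA synthetases 1 rose, TARS, by 0.29 ± 0.08, which is 5.56% against 5.07% of all tested genes that changed. TARS did not pass without day 3 library 10, 11 or 12 or day 7 library 19 or 20, nor after thinning to equal depth.

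Of 15 heat shock genes 3 chaperones rose and 2 small heat shock proteins fell (33.3%, against 5.07% of all tested genes). HSPA8 rose from 1523 ± 49.1 to 1815 ± 95.4 CPM (log2 0.25 ± 0.06 (SE)), and its cochaperones DNAJA1 and DNAJB1 rose by 0.29 ± 0.08 and 0.30 ± 0.08. HSPB1 fell from 1285, 1253, 1232 and 1411 CPM to 1132, 968, 963 and 1088 CPM (-0.32 ± 0.07, adjusted p = 0.0029). CRYAB fell from 11.8, 12.8, 9.46 and 10.3 CPM to 6.17, 5.90, 4.67 and 7.29 CPM (-0.90 ± 0.21, adjusted p = 0.00886), from an untreated 21.7 to 28.6 CPM. HSPA8 did not pass without day 7 library 20, and CRYAB not without day 3 library 10. The count of rises was 1 without day 3 library 10 or 12. Of 22 genes on the list of NRF2 targets and redox genes 9.09% changed, against 5.07% of all tested genes. HMOX1, or heme oxygenase 1, rose from 60.3, 51.9, 57.7 and 41.5 CPM to 121, 110.4, 88.9 and 90.4 CPM (0.96 ± 0.12, adjusted p = 1.63e-05). On the same list TXNIP, a thioredoxin inhibitor, fell from 154, 109.7, 122 and 107 CPM to 76.6, 80.2, 89.8 and 74.5 CPM (-0.60 ± 0.11, adjusted p = 0.00153), and 2 genes fell without day 3 library 10 or day 7 library 17 or 20. DNAJA1, DNAJB1 and TXNIP were named after their values were seen.

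Metallothioneins bind zinc and copper, and 3 of 8 rose (37.5%, against 2.76% of all tested genes). MT1E went from 160.0, 136, 131 and 153 CPM to 228, 233, 199.7 and 216 CPM (log2 0.60 ± 0.08 (SE), adjusted p = 3.94e-06). MT2A went from 6889, 6036, 6869.6 and 6967 CPM to 9522, 7357, 7744 and 8121 CPM (0.29 ± 0.07, adjusted p = 0.0171). MT1A rose by 0.56 ± 0.17 (adjusted p = 0.0476), and it lost its call in 15 of 17 alternative settings. MT1E alone passed without day 3 library 10. For all 3 genes day 3 was the lowest of the 3 groups by mean, and the copies of this family are similar enough for reads to be split.

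Enzymes that modify chromatin passed the test at about the 5.07% of all tested genes or not at all, with 5.56% of deacetylases, 5.26% of demethylases and 4.0% of methyltransferases. Histone acetyltransferases gave 0 of 16 by edgeR, DESeq2 and limma-voom, with 2 (12.5%) at an unadjusted p under 0.05. EP300 stood at 74.6 ± 5.03 and 64.1 ± 7.93 CPM (95% interval -0.40 to -0.0031) and KAT2A at 52.1 ± 1.40 and 60.1 ± 2.62 CPM (0.02 to 0.39), neither of which passed after adjustment (0.262 and 0.227). Of 18 deacetylases HDAC6, a cytoplasmic deacetylase of tubulin, fell from 49.0, 43.9, 43.2 and 49.8 CPM to 34.1, 34.0, 37.6 and 37.3 CPM (log2 -0.37 ± 0.10 (SE), adjusted p = 0.0291). Of 19 lysine demethylases KDM4B, a demethylase of histone H3 that hypoxia-inducible factors induce, fell from 90.1, 101, 109 and 96.8 CPM to 86.3, 69.5, 72.1 and 66.7 CPM (-0.44 ± 0.10, adjusted p = 0.00556). Of 25 methyltransferases SETD7 rose from 86.8 ± 1.89 to 109 ± 9.31 CPM (0.32 ± 0.09, adjusted p = 0.0199). KDM4B passed in all 17 alternative settings. HDAC6 did not pass without day 3 library 9 or 12 or day 7 library 18, nor SETD7 without day 3 library 9, 10 or 11 or day 7 library 19 or 20. Neither HDAC6 nor SETD7 passed by DESeq2, and HDAC6 did not pass after thinning to equal depth. TET and DNA methyltransferases gave 0 of 6 by edgeR, DESeq2 and limma-voom, with 1 at an unadjusted p under 0.05, and DNMT1 had a 95% interval of -0.20 to 0.06. The 2-hydroxyglutarate metabolism list gave 0 of 6 by the same 3 tools, with 1 at an unadjusted p under 0.05.

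Of 13 tested histone genes 2 rose and 2 fell (30.8%, against 5.07% of all tested genes). The linker histone gene H1FX went from 447, 451, 459 and 458 CPM to 350.5, 364, 316 and 318 CPM (log2 -0.43 ± 0.07 (SE), adjusted p = 0.0001) and H1F0 from 275 ± 6.31 to 225 ± 8.35 CPM (-0.29 ± 0.06, adjusted p = 0.00341). HIST1H2BK rose from 35.6 ± 5.35 to 51.2 ± 5.04 CPM (0.54 ± 0.12, adjusted p = 0.00452) and HIST1H2BD by 0.81 ± 0.24 (adjusted p = 0.0423). The linker histone genes HIST1H1C and HIST1H1E, at 0.29 ± 0.25 and 0.35 ± 0.44, did not pass, and were named after their values were seen. With any one of day 3 libraries 9, 10 and 12 or day 7 libraries 17, 18 and 19 left out, 1 rise remained by count. Most histone transcripts carry no poly(A) tail, so a method primed on poly(A) counts a small part of them.

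The remaining lists are read against the 5.07% of all tested genes that changed. Of 36 lysosome and autophagy genes 4 fell (11.1%), including ATG9A (-0.39 ± 0.08 (SE)), the growth factor precursor GRN (-0.29 ± 0.06), CTSD and the cholesterol carrier NPC2. Of 19 unfolded protein response genes 2 changed (10.5%): the calnexin gene CANX (0.28 ± 0.07) and DNAJB11 (0.23 ± 0.07) rose, and the count was 1 without any single library other than day 3 library 10, where it was 0, and day 7 library 17, where it was 2. Of 12 fatty acid synthesis genes ELOVL1 rose (8.33%), by 0.28 ± 0.06, and it did not pass after thinning to equal depth. Of 22 cholesterol genes 0 changed by edgeR, DESeq2 and limma-voom, with 7 (31.8%) at an unadjusted p under 0.05, against 18.4% of all tested genes. Of 19 apoptosis regulators 1 changed (5.26%): the inhibitor BIRC2 rose by 0.50 ± 0.14, and passed without day 7 library 17 but not without any other single library.

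Several large changes outside these groups were in single genes. NNMT, which methylates nicotinamide, fell from 307, 287, 267 and 310.4 CPM to 149, 119, 141 and 156 CPM (log2 -1.05 ± 0.08 (SE), adjusted p = 1.09e-10), below the untreated 311 to 346 CPM. The glycine transporter SLC6A9 stepped down through both days, from 36.8 ± 2.09 (n = 3) to 26.9 ± 2.82 and 14.7 ± 1.96 CPM. C11orf54 fell from 26.0 ± 2.61 to 14.0 ± 1.34 CPM (-0.87 ± 0.15). The larger changes at lower counts were not in the size ranking, for example TRH, the thyrotropin-releasing hormone gene, at 6.17 ± 1.90 and 0.981 ± 0.328 CPM (-2.64 ± 0.38, adjusted p = 2.78e-05, named after its values were seen).

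The labelled cell type could be checked in part. The astrocyte genes GFAP, AQP4, ALDH1L1, SLC1A2, NFIA, GLUL and FABP7 are not among the genes listed in the table. S100B had 1 to 8 UMIs per library, CLU 3 to 10 and SLC1A3 6 to 29. VIM, GJA1, SOX9, CD44, ID3, HES1, ALDOC and NFIB had more, with the fewest, 44 UMIs, in SOX9. Of 9 tested astrocyte markers ID3 and HES1 rose and ALDOC fell (33.3%, against 5.07% of all tested genes). HES1 did not pass without day 3 library 10 or after thinning to equal depth. Of 12 neuron markers 4 were listed, and of the 2 tested 0 changed by edgeR, DESeq2 and limma-voom, with 0 at an unadjusted p under 0.05; the same held for 3 tested endothelial markers, of 9. Of 10 microglia markers CD68 and CSF1R were listed, and CD68, a lysosomal protein of many cells, rose from 115, 120.3, 131 and 121 CPM to 172, 152, 159 and 155 CPM (log2 0.39 ± 0.07 (SE)). Their summed level was 116 to 131.5 CPM on day 3 and 154.2 to 174.6 CPM on day 7, while PTPRC, AIF1 and TYROBP were not listed. Of 12 progenitor markers 7 were listed and 6 tested. Of these 6, 2 changes were above 0 and 4 below, and 1 gene fell (16.7%, against 2.31% of all tested genes). It was CSPG4, by 0.39 ± 0.08, which is also on the fibroblast and pericyte list. Of 7 tested keratinocyte and epithelial markers LAMB3 and KRT81 rose and KRT18 fell (42.9%), and 2 fell without day 3 library 11. KRT18 went from 823 ± 56.6 to 675 ± 18.9 CPM. KRT81, a hair keratin with close copies, went from 3.94, 2.19, 4.50 and 2.76 CPM to 11.0, 9.38, 11.0 and 11.2 CPM (1.71 ± 0.27). The part of any other cell type in the cytokine result was not tested.

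The authors' deposited table has an adjusted p under 0.05 for 77 of the 86 named genes that changed here. In the authors' deposited table, day 7 was higher for 191 genes and lower for 175.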

How the data were processed

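Bulk MARS-seq libraries of 30 ng RNA were counted by the authors; the deposited table gives raw UMI counts per gene, aligned to hg38 with STAR 2.4.2a and handled with cutadapt and HTSeq, per the submitters' processing notes, which give no role or order. The deposited table also holds the authors' DESeq2 log2 fold changes and adjusted p-values, and 22 columns of other per-sample values that were not used. No source used here states whether counting used strand, so overlapping genes cannot be told apart. Untreated columns 1 and 2 carry a description shared by a b1 and a b2 sample; they were taken as b2, since all other sample columns are b2, and the fit of 8 libraries leaves them out.

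Counts of the 11 libraries were filtered with filterByExpr, scaled by TMM and fitted in edgeR 4.0.16 (R 4.3.3) by robust quasi-likelihood, with the contrast day 7 minus day 3 and Benjamini-Hochberg adjustment over all tested genes. DESeq2 1.42.0, limma 3.58.1, other scalings and filters, thinning and leaving out each library were the alternatives; the script was tested on simulated data. Named genes are the 12 largest rises and 12 largest falls among changed genes of at least 20 CPM with ranges apart, the changed members of each list with the smallest p (3 where at least 3 changed, otherwise 1), the 2 most abundant of a list with none, and IDH1; some genes that this rule takes are not reported here. Other genes given with a CPM or a log2 change lie outside this rule. They were picked after their values were seen, also where their paragraph does not say so. The members and lists were chosen with earlier results of these data known. Coordinates are from GENCODE 29 (GRCh38), which holds 94.6% of the symbols, and promoters from RefSeq, GRCh38.p14. The total UMIs per library limit the precision. Intervals are 95% from the fit.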

Additional observations from a re-analysis of the deposited data

Results flagged for a closer look

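Of 208 sets of 4 libraries (the named genes, day 3 and day 7 apart), 12 held a library far from the other 3, or 5.77%, where chance marks about 1 in 20. Day 7 library 17 accounted for 5 of them: HLA-B at 759.1 CPM, LOXL1 at 137.6, PHGDH at 257.0 and PPIF at 931.1 were the highest of their day, and IDH1 at 30.18 the lowest. This library also had the most extreme second principal component of the 11 libraries, 18.65. Day 3 library 10 accounted for 3, with ITGA2 highest at 17.91 CPM and MT2A and PGK1 lowest at 6036.0 and 1024.0 CPM. The others were CXCL1 in day 3 library 12, highest at 346.7 CPM, ALDH1A3 and KRT81 in day 7 library 18, lowest at 125.0 and 9.378 CPM, and TAGLN in day 7 library 19, lowest at 311.7 CPM. In ALDH1A3, CXCL1, HLA-B, ITGA2, KRT81, LOXL1, MT2A, PGK1, PPIF and TAGLN that library stayed on its own day's side of the gap between days. ALDH1A3 and CXCL1 are among the largest rises, which were chosen to have ranges apart.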

How the results depend on the processing

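No paired analysis was possible because the day 3 and day 7 libraries share no replicate numbers. With 1 library left out at a time, 387 to 645 genes changed (191 to 305 rose, 178 to 340 fell; the 191 was without day 3 library 10). Other scalings, filters, fits and tools gave 399 (DESeq2) to 547 changed genes, 471 of them by limma-voom and 404 after thinning to equal depth. Rises of at least 2-fold numbered 19 after thinning, and falls of at least 2-fold 11 with a stricter filter on low counts, which tests fewer low genes. Of the 86 named genes that changed, 65 passed in all 17 alternatives, 21 lost the call in at least 1, 9 of them in 5 or more, and 0 changed sign. Signs turned in named genes that had not passed the test. With 1 library left out at a time the log2 changes ran from -0.0436 to 0.115 for IDH1, -0.134 to 0.0291 for RPS2, -0.231 to 0.041 for TUBB3, -0.0147 to 0.0987 for EGFL7, -0.0726 to 0.00872 for UHRF1 and -0.0866 to 0.0280 for FDPS. After thinning FDPS was at 0.0293, SNAP25 at -0.202 (0.34 before) and TIE1 at 0.0754 (-0.24 before). The cause was not tested. Depth limits genes of low level, such as C3, whose day 3 values rest on 16 to 25 UMIs per library.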

Other observations

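These genes were picked after their values were seen and are described only. In the complement system, C3 rose while C1R, a protease that starts the classical pathway, fell from 73.1 ± 4.21 to 45.7 ± 5.54 CPM (SD, n = 4; log2 -0.67 ± 0.10 (SE), edgeR adjusted p = 3.56e-05), in the same direction as SERPING1. PTX3, a secreted pattern recognition protein, rose from 204 ± 10.9 to 306 ± 11.1 CPM (0.58 ± 0.07). Among genes of secreted growth regulators, PGF, a relative of VEGFA, went from 59.7, 78.2, 69.8 and 60.8 CPM to 133, 139, 131 and 116 CPM (0.94 ± 0.09, adjusted p = 3.7e-08). The Wnt inhibitor DKK1 rose by 0.75 ± 0.08, the ligand WNT7B by 0.70 ± 0.11, the BMP inhibitor GREM1 by 0.79 ± 0.13 and FGF2 by 0.76 ± 0.16. The receptor NOTCH3 and the transcription factor TWIST1 fell by 0.68 ± 0.15 and 0.57 ± 0.10.

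Retinoid genes split: ALDH1A3, which makes retinoic acid, rose, while the carrier CRABP2 and the retinoid-induced RARRES1 fell, CRABP2 by 0.46 ± 0.11 and RARRES1 by 0.78 ± 0.15. Among cell cycle regulators CCND1, or cyclin D1, rose from 159, 180.2, 175 and 163 CPM to 228, 260.1, 245 and 269.9 CPM (log2 0.56 ± 0.07, edgeR adjusted p = 4.71e-06) and its partner CDK6 by 0.49 ± 0.15. The inhibitors CDKN1B and CDKN2C fell by 0.47 ± 0.12 and 0.33 ± 0.09, while CDKN1A, another inhibitor, rose.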
